A study of Mus musculus with 9 samples.

Results

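The tripartite motif (TRIM) genes encode a family of proteins that share an amino-terminal module of a RING finger, 1 or more B-box zinc fingers and a coiled coil, and that differ in the domain at the carboxyl terminus. The RING finger makes most of them ubiquitin ligases. Several act in antiviral defence, either by binding viral proteins directly or by attaching ubiquitin to proteins of the RIG-I, STING and NF-κB pathways, and many antiviral members are known interferon-stimulated genes. Others are nuclear corepressors, muscle proteins or microtubule-bound proteins. Members were taken by name, as every row of the count table named Trim followed by a number and at most 1 letter. That gave 58 genes of the 24186 in the table, each with 1 row, and 46 of the 58 passed the filter on low counts that 15098 genes of the table passed.

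The RNA is from stromal cells of the bone marrow of adult C57Bl/6 mice that carry irtTA-GBD*-TAg, a transgene from which dexamethasone and doxycycline together switch on large T antigen. The cells of all groups had been immortalised in this conditional way, cloned, and grown without the inducers for 3 days. There were 9 libraries in 3 groups of 3: progenitors with adipogenic potential, adipogenic progenitors after 3 days with interferon-γ (IFNγ) at 10 ng/ml, and progenitors with osteogenic potential. The libraries of each group carry the numbers 4, 5 and 6. Same-numbered libraries of the adipogenic groups, with and without IFNγ, deviated from their group means together, and the osteogenic numbers did not pair with them. The study calls the 3 of a group biological replicates without saying whether each was its own clone, culture or mouse, so a p-value here weighs a difference only against the spread between these libraries, which may be technical.

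Totals were 27440089 to 39251602 counts per library, and the level that 0 counts still allow was 0.0749 to 0.113 CPM (counts scaled per library to a common total). The TRIM genes together took 0.212 to 0.218% of the counts in untreated adipogenic libraries, 0.270 to 0.298% in treated ones and 0.179 to 0.186% in osteogenic ones, so the 3 groups did not overlap in this share. Of 7 osteoblast genes, Runx2, Sp7, Alpl and Ibsp were higher in osteogenic than in untreated adipogenic libraries, and the others did not pass. Of the 7 adipocyte genes only Lpl passed that test, lower in osteogenic ones. The osteoblast genes summed to 276 to 1426 CPM in untreated, 304 to 474 CPM in treated and 637 to 2231 CPM in osteogenic libraries. The adipocyte genes summed to 74.91 to 646, 87.0 to 333 and 37.1 to 77.95 CPM. Both sums overlapped between untreated adipogenic and osteogenic libraries. Of 12 marrow stromal markers, 10 had a mean of at least 1 CPM in each group, and the 12 summed to 17430 to 24060 CPM in untreated adipogenic, 10070 to 13130 CPM in treated and 54480 to 77180 CPM in osteogenic libraries. Markers of blood cells and macrophages summed to 10.4 to 30.9 CPM over 11 genes in all libraries. Endothelial markers summed over 7 genes to 11.7 to 20.0 CPM in untreated adipogenic, 24.3 to 61.3 CPM in treated and 2.51 to 3.08 CPM in osteogenic libraries. The 15 S and G2/M phase genes summed to 677 to 1382 CPM in untreated, 1266 to 2328 CPM in treated and 1007 to 1317 CPM in osteogenic libraries. Of the 11 blood markers 1 to 2 were at 0 in all libraries of a group, and of the 7 endothelial ones likewise 1 to 2. The cell cycle sums overlapped between groups, and none of the 15 genes passed the edgeR test in any of the 3 comparisons, while 13 rose with IFNγ with the library number as a block. Mitochondrially encoded genes took 0.93 to 1.38% of the counts in untreated, 0.660 to 0.706% in treated and 0.945 to 1.06% in osteogenic libraries. The stromal and endothelial sums thus separated all 3 groups, and the mitochondrial share separated treated from other libraries. Such sums weigh abundant genes most. Gene by gene with IFNγ, 1 of 11 tested stromal markers rose and 0 fell in edgeR, with a median log2 fold change of −0.07. Of 3 tested endothelial markers 0 passed with IFNγ. In osteogenic against untreated adipogenic libraries 2 stromal markers were higher, 0 were lower, and 1 endothelial marker was lower. The part of these measures and of the cell cycle genes in the results below was not tested.

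Per exonic length, the most abundant member was Trim28, the corepressor that KRAB zinc finger proteins recruit to silence retroelements. Its mean level was 61.8 RPKM (CPM divided by the exonic length in kilobases) in untreated adipogenic, 70.7 RPKM in treated and 73.2 RPKM in osteogenic libraries. Trim35, a member with a C-terminal SPRY domain (class IV), followed at 48.5, 48.3 and 59.6 RPKM. Trim8, which has no recognised C-terminal domain (class V), had 49.1, 46.8 and 26.4 RPKM. These 3 stood highest among the untreated adipogenic means and none of them passed the test with IFNγ. Of the remaining structural groups, the highest members by mean RPKM were Trim46 in class I (4.27, 4.62 and 5.41 RPKM), Trim54 among the muscle RING finger genes (0.881, 0.354 and 0.316 RPKM), Trim32 among those with NHL repeats (20.8, 16.6 and 17.3 RPKM), Trim59 in classes VIII to XI (15.0, 16.8 and 25.2 RPKM) and Trim44 among those without a RING (16.5, 17.8 and 22.0 RPKM). Of the 58 members, the 8 that rose with IFNγ (below) ranked from 7 (Trim25) to 47 (Trim30c) by the untreated mean. Trim21 went from 6.28 to 35.9 RPKM and Trim30a from 8.19 to 35.4 RPKM, while Trim30a stood at 0.503 RPKM in osteogenic cells.

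**Figure D1:**
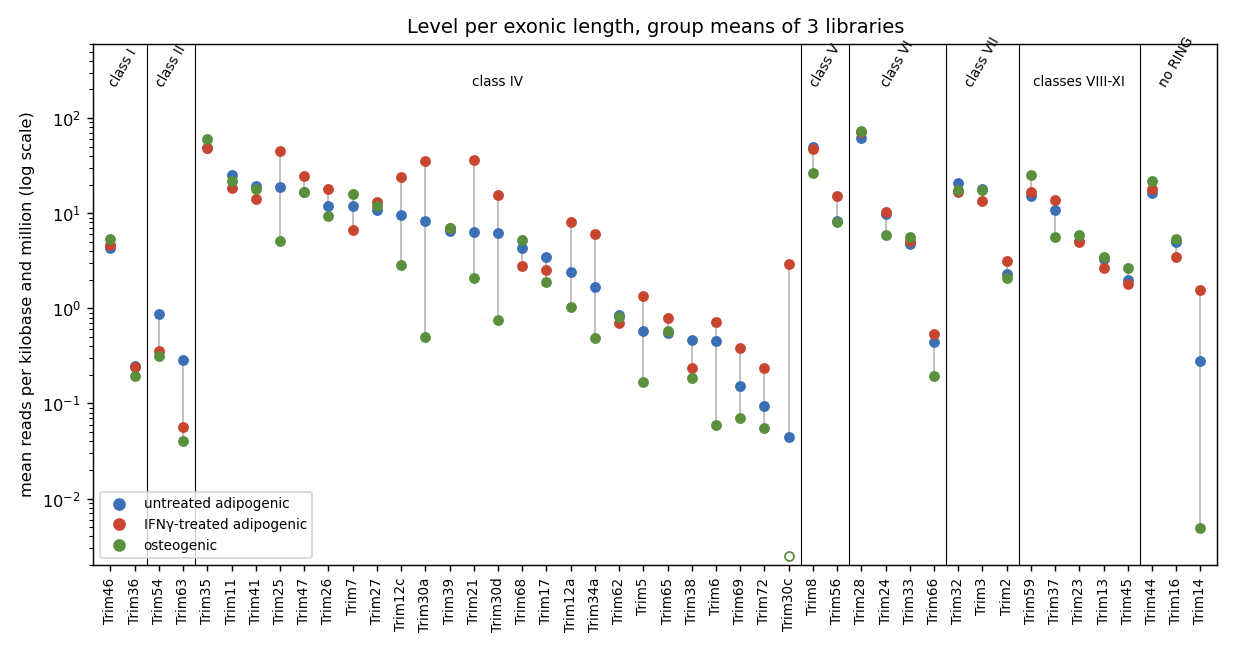
Mean level per exonic length (RPKM, log axis, 3 libraries a group) of the 46 TRIM genes that passed the filter, ordered by structural class and, within a class, by the untreated adipogenic mean. Blue is untreated adipogenic, red IFNγ-treated adipogenic, green osteogenic, and the open circle marks 0 counts in all 3 libraries. The red and green points stand widest apart within class IV and at Trim14.

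With IFNγ, 8 TRIM genes rose and none fell at an adjusted p of at most 0.05 (quasi-likelihood F test of edgeR, Benjamini-Hochberg adjusted over 15098 genes). The 8 were Trim21, Trim30a, Trim30c, Trim34a, Trim12a, Trim12c, Trim25 and Trim56. In bulk libraries such as these, a change in the share of cells that express a gene and a change in RNA per cell, fewer cells and less RNA included, cannot be told apart. Over all genes tested, 2.01% rose and 0.245% fell. The median log2 fold change was 0.14 over the 46 members and −0.02 over all genes. At an unadjusted p under 0.05 there were 18 members, against 14.3% of all genes. DESeq2 called 11 members higher and 1 lower, and over the 15461 genes it tested 4.74% higher and 2.01% lower. With the library number as a block, a fit of the 6 adipogenic libraries called 13 members higher and 5 lower. In that fit 8.61% of 14705 genes rose and 8.02% fell. The block added Trim14, Trim2, Trim26, Trim5 and Trim69 to the same 8, and it called Trim11, Trim3, Trim32, Trim41 and Trim63 lower. In 14 of the 46 members all treated libraries were above all untreated ones, against 10.2% of all genes, and in 3 (Trim17, Trim63 and Trim68) all were below, against 7.17%. Within each number, 22 of the 46 members were higher in the treated library of all 3 numbers, and 12 were lower in all 3. For all 15098 genes these counts were 4060 and 4485.

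**Figure D2:**
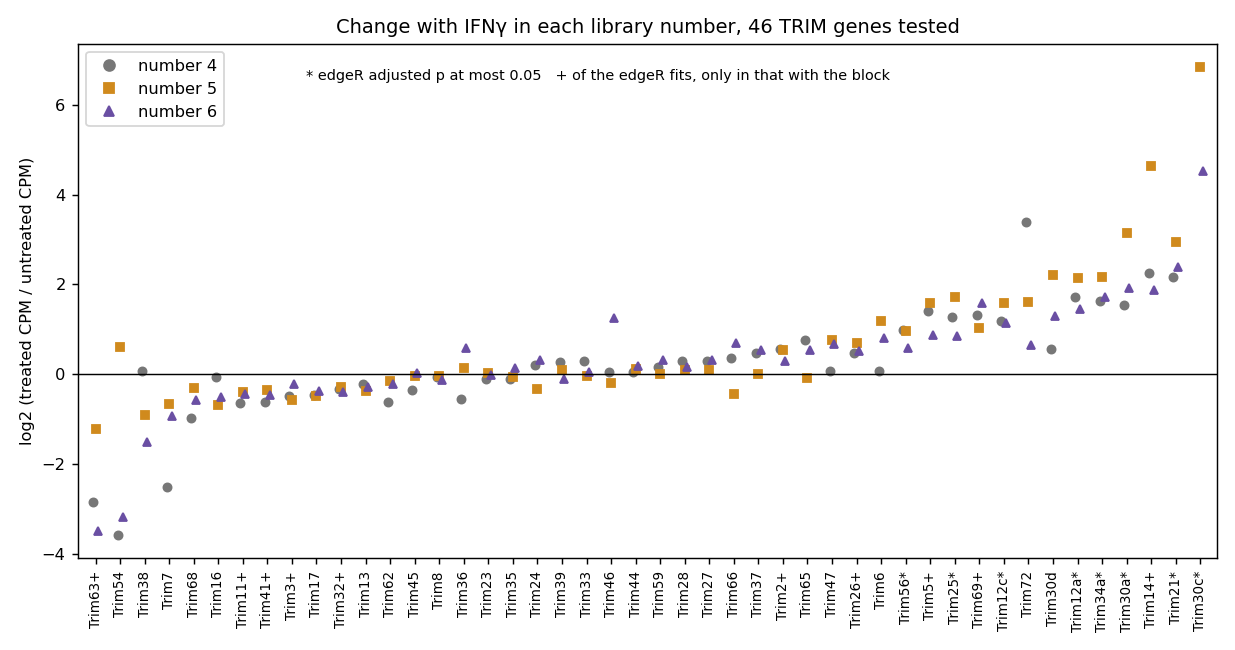
Log2 ratio of treated to untreated CPM for the 46 TRIM genes tested, ordered by the fitted fold change, with 1 symbol for each library number. Asterisks mark the 8 genes that rose at an adjusted p of at most 0.05 and plus signs those that passed in the edgeR fit with the replicate block but not in the one without. The ratio for Trim30c number 4 is not drawn because its untreated count was 0.

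Class IV held 7 of the 8, out of 25 of its 31 members that were tested, and 6 of these 7 were on the list of the antiviral cluster of chromosome 7. That list has 12 genes in the table, the row of Trim34b being named Gm15134 and thus no member by name, and 11 were tested with a median log2 fold change of 1.40. In the order of RefSeq (GRCm38.p6) the neighbours there are Trim6, Trim34a, Trim5, Trim12a, Trim12c, Trim30b, Trim30c, Trim30a and Trim30d, with Trim34b between Trim12a and Trim12c and 1 predicted gene between Trim12c and Trim30b. Trim21 and Trim68, also on the list, lie apart on the same chromosome with 7 olfactory receptor genes between them.

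The Trim30 genes are mouse relatives of TRIM5, and the Trim30a protein is known to restrain NF-κB signalling by lowering TAB2 and TAB3. Trim30a stood at 85.0, 34.8 and 74.0 CPM in untreated libraries 4, 5 and 6 and at 248, 306 and 282 CPM in the treated ones. All treated libraries were above all untreated ones, and untreated library 5 was the lowest. The log2 fold change was 2.11 ± 0.30 (SE, n = 3 against 3), or 4.32-fold, with an edgeR adjusted p of 0.00909. Trim30d, its neighbour, had 29.0, 15.4 and 25.1 CPM untreated and 43.0, 71.4 and 61.8 CPM treated. Its groups did not overlap either, but its log2 fold change of 1.34 ± 0.31 missed the threshold with an edgeR adjusted p of 0.0754 and of 0.0513 with the block. DESeq2 and limma-voom, both without a block, did call Trim30d higher. Trim30c was close to silent without IFNγ, with 0, 2 and 6 counts in the untreated libraries against 122, 230 and 122 in the treated ones. The ratio of pooled counts, scaled by the library totals, was 62.0-fold with an exact 95% interval of 31.2 to 145, which covers counting error only. Its edgeR adjusted p was 0.0338. Trim30b, below the filter, had 0 counts in every untreated library and 5, 7 and 6 in the treated ones. With 3 counts put in for the untreated group the ratio was 6.28-fold, which leaves out counting error in the treated group.

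Trim12a, Trim12c and Trim5 are the mouse genes most related to the primate retroviral restriction factor TRIM5α. Trim12c had 36.4, 34.7 and 36.4 CPM untreated and 82.3, 104 and 80.7 CPM treated, a log2 fold change of 1.31 ± 0.16 with an edgeR adjusted p of 0.00381. Trim12a went from 15.6, 10.0 and 15.8 CPM to 51.6, 44.4 and 43.2 CPM, a log2 fold change of 1.75 ± 0.25 with an edgeR adjusted p of 0.00921. In both genes the treated libraries were above every untreated one. Trim5 was lower, with 2.39, 1.25 and 2.72 CPM untreated and 6.33, 3.78 and 5.00 CPM treated. Its groups did not overlap, and its log2 fold change of 1.24 ± 0.42 had an edgeR adjusted p of 0.210, and of 0.0189 with the block. These 3 genes share transcript sequence: of all 75-base windows of their GENCODE M21 transcripts, 5.25% in Trim12a, 16.9% in Trim12c and 20.6% in Trim5 also occurred in another gene, most often in one another. How the authors' counting treated such reads is not given, so part of their counts could belong to a relative.

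Trim34a stood at 7.46, 6.03 and 8.06 CPM untreated and 23.0, 27.1 and 26.6 CPM treated, again without overlap, with a log2 fold change of 1.83 ± 0.31 and an edgeR adjusted p of 0.0205. Trim34a shared 29.5% of its windows with Trim34b, and 23.5% of its exonic length lies opposite an antisense gene in GENCODE M21. Part of its counts could belong to either, and these shares do not measure how large that part is. The row of Trim34b itself had means of 0.153 CPM untreated and 0.41 CPM treated. Trim6, a ligase known to make unanchored ubiquitin chains that activate IKKε, had 2.42, 1.05 and 3.22 CPM untreated and 2.54, 2.40 and 5.65 CPM treated. Those groups overlapped and the edgeR adjusted p was 0.745.

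Trim21 is the cytosolic Fc receptor that binds antibody-coated virus and directs it to the proteasome. It rose from 19.7, 16.3 and 16.3 CPM to 87.6, 126 and 85.5 CPM, and no treated library came near the untreated range. The log2 fold change was 2.52 ± 0.21, or 5.72-fold, with an edgeR adjusted p of 0.000790, which was the smallest of the 46. Trim68, also in class IV, had 11.4, 8.74 and 10.7 CPM untreated and 5.76, 7.11 and 7.18 CPM treated. Its treated libraries were all below the untreated ones, but the log2 fold change of −0.62 ± 0.18 had an edgeR adjusted p of 0.151.

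**Figure D3:**
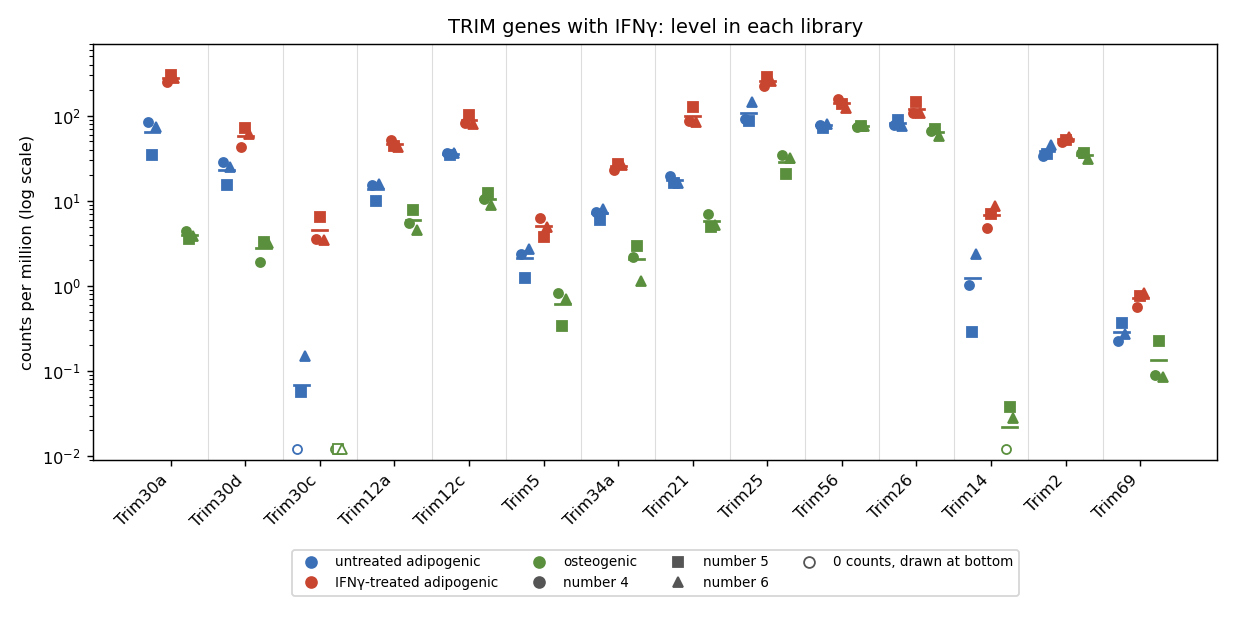
Level of 14 TRIM genes in each of the 9 libraries (CPM, log axis): the 13 that rose with IFNγ with or without the replicate block, and Trim30d. Colours are the groups, shapes the library numbers, bars the group means, and open symbols at the bottom 0 counts. In all 14 genes the 3 treated libraries lie above the 3 untreated ones.

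Outside the cluster, Trim25 is the ligase best known for attaching ubiquitin to RIG-I, the sensor of viral RNA. Per length it was the most abundant of the 8 after treatment (44.5 RPKM), with 91.7, 86.7 and 144 CPM untreated and 222, 287 and 259 CPM treated. Untreated library 6 was the highest of its group, and the treated libraries were still all above it. The log2 fold change of 1.25 ± 0.26 had an edgeR adjusted p of 0.0492, at the edge of the threshold, and of 0.01275 with the block. Trim56, a class V ligase known to support STING signalling, rose from 78.8, 71.7 and 81.3 CPM to 157, 139.7 and 123 CPM without overlap. Its log2 fold change of 0.86 ± 0.12 was the smallest of the 8 and had an edgeR adjusted p of 0.00828.

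Trim14 lacks a RING finger and is known as a partner of MAVS at mitochondria. It had 1.01, 0.285 and 2.40 CPM untreated and 4.85, 7.08 and 8.83 CPM treated, so that the untreated values spread widely and none reached the treated ones. Its log2 fold change of 2.48 ± 0.72 had an edgeR adjusted p of 0.150, and of 0.0326 with the block. In GENCODE M21, 31.3% of the exonic length of Trim14 lies opposite exons of Nans, and whether the counting used strand is not given. Trim26, a class IV gene in the MHC class I region, had 78.3, 90.1 and 75.8 CPM untreated and 109, 147 and 108 CPM treated, with edgeR adjusted p-values of 0.114 and, with the block, 0.0174. Trim2, a ligase with NHL repeats that acts on neurofilaments, had 33.7, 35.7 and 46.0 CPM untreated and 49.9, 51.9 and 56.7 CPM treated, with edgeR adjusted p-values of 0.194 and, with the block, 0.0307. Trim69 was rare, at means of 0.290 ± 0.0736 CPM untreated and 0.715 ± 0.137 CPM treated (SD, n = 3), with edgeR adjusted p-values of 0.206 and, with the block, 0.0471. For these 4 genes the groups did not overlap. The calls on Trim2 and Trim69 were made only in fits with a block, and those on Trim14 and Trim26 also by DESeq2 without one.

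The 5 members called lower with the block had log2 fold changes there of −0.51 (Trim11), −0.49 (Trim41), −0.44 (Trim3), −0.35 (Trim32) and −2.34 (Trim63), with edgeR adjusted p-values of 0.0233, 0.0261, 0.0427, 0.0411 and 0.0358. Each was lower in the treated library of all 3 numbers. In Trim11, the untreated values of 70.2, 123 and 76.7 CPM and the treated values of 45.1, 93.7 and 56.4 CPM overlapped between numbers, while the treated to untreated ratios of 0.643, 0.763 and 0.735 all lay below 1. Trim63 encodes the muscle atrophy ligase MuRF1, and it was rare here at 0.845, 0.655 and 0.948 CPM untreated and 0.118, 0.282 and 0.0852 CPM treated. Skeletal muscle markers summed to at most 0.514 CPM over 6 genes in any library.

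A difference between numbers in the size of the rise was not tested. Of the 8 members that rose, 7 had counts in all untreated libraries, and in 6 of these 7 the ratio of treated to untreated was largest in number 5. For all genes that rose this was so in 194 of 287 (67.6%). Trim30a rose 2.92-fold in number 4, 8.81-fold in number 5 and 3.81-fold in number 6. Trim21 rose 4.46-fold, 7.74-fold and 5.24-fold. Trim56 was the exception, with 2.00-fold, 1.95-fold and 1.51-fold. In Trim30a, untreated library 5 was the lowest of its group and treated library 5 the highest.

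Promoter sequence was examined for description only. Of the 8 risers 6 are on 1 chromosome, and 5 of these are near neighbours. RefSeq (GRCm38.p6) gave windows from 250 bases before to 50 bases after the start for 45 of the 58 members. The repeat read by interferon regulatory factors and ISGF3 was searched as GAAA, any 2 bases, GAAA, and the palindrome read by STAT dimers as TTC, any 3 bases, GAA, each on both strands and with overlaps allowed. All 8 risers had a window. The repeat was in 5 of them (Trim21, Trim34a, Trim12a, Trim12c and Trim30a), while 3.99% of the 27025 genes in the table and 3.44% of its 32851 windows hold it. The palindrome was in 1 of the 8 (Trim30c), against 9.55% of genes and 8.3% of windows. Over all 45 members with a window, 9 held the repeat and 5 the palindrome. The other members with the repeat were Trim5, Trim26 and Trim2, which passed in edgeR with the block but not without it, and Trim30d, which passed in neither of these fits. The windows of Trim25 and Trim56 held neither motif. A match describes these letters and is no evidence of binding, and no match says only that these letters are not in this window.

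The 8 stretches below show where the motif lies and how much the neighbours share. They are from the members on the chromosome 7 list whose windows hold a motif, so neighbours without one are left out. Each runs 5′ to 3′ on the gene's strand, from 90 bases before the start through the first 30 bases from it, with the motif in capitals (the palindrome in Trim30c, the repeat or its reverse complement elsewhere). The positions in GRCm38.p6 are chr7:104465164-104465283, minus strand for Trim30a (1 of its 2 starts), chr7:104507820-104507939, minus strand for Trim30d, chr7:104400749-104400868, minus strand for Trim30c, chr7:104315466-104315585, minus strand for Trim12a, chr7:104353320-104353439, minus strand for Trim12c, chr7:104288077-104288196, minus strand for Trim5, chr7:104244367-104244486, plus strand for Trim34a and chr7:102565453-102565572, minus strand for Trim21.
Trim30a: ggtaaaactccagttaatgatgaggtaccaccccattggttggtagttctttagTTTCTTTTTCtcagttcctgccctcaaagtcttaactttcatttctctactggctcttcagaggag
Trim30d: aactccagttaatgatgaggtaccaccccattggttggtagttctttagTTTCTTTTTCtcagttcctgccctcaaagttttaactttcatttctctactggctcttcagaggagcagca
Trim30c: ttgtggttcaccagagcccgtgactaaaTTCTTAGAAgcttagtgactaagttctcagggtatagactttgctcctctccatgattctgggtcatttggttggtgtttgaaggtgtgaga
Trim12a: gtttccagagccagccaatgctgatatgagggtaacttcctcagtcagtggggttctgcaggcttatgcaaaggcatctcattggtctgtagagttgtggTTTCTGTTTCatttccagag
Trim12c: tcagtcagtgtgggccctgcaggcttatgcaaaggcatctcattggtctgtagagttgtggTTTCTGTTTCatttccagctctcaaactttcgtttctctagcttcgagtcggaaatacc
Trim5: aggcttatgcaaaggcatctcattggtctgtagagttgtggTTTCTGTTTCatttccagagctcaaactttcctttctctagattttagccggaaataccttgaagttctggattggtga
Trim34a: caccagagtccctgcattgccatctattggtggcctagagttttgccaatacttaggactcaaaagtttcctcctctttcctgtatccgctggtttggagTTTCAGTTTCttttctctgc
Trim21: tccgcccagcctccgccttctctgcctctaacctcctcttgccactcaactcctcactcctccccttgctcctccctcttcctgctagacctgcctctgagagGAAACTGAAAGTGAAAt
The longest run of identical bases was 79 between the stretches of Trim30a and Trim30d. It was 63 between Trim12a and Trim12c, 61 between Trim12a and Trim5 and 59 between Trim12c and Trim5. These shared runs hold the motif, which therefore is not an independent match in each gene. In Trim21 the capitals cover a pair of overlapping repeats, at 13 to 28 bases after the start.

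**Figure D4:**
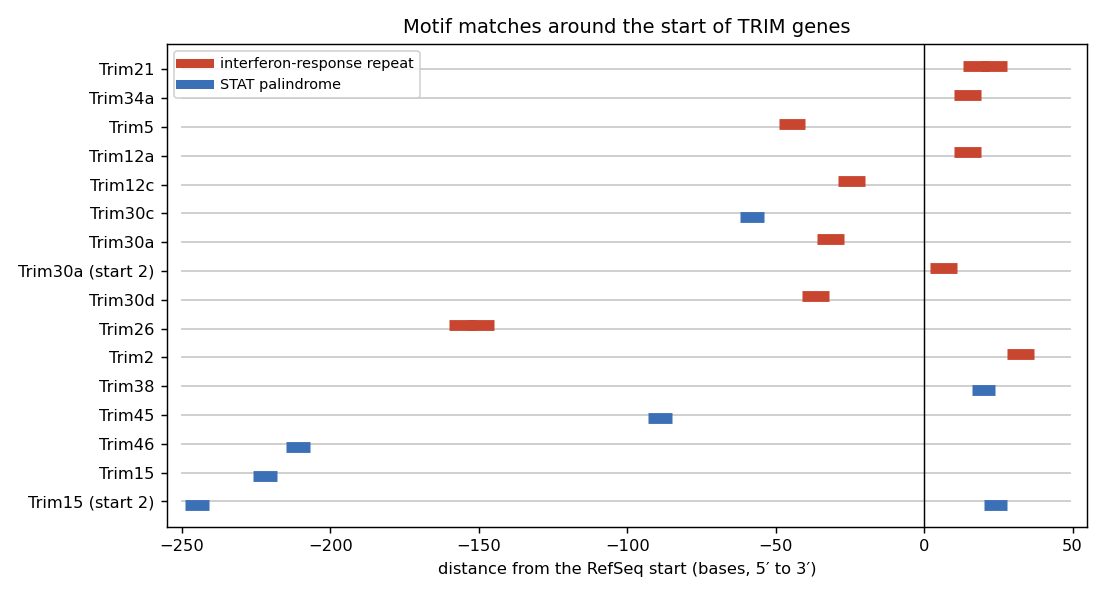
Position of each match to the interferon-response repeat (red) and the STAT palindrome (blue), in bases from the RefSeq start at 0, for the members with at least 1 match among the 45 with a window. Grey lines are the windows searched, and a second start of a gene has its own line. In 8 of the 9 genes with the repeat a match lies within 50 bases of a start, and in Trim26 the pair of matches lies 145 to 160 bases before it.

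Osteogenic progenitors were compared with untreated adipogenic ones, both without cytokine. The cells were cloned, so a difference in lineage potential cannot be told apart here from other differences between the clones. In this comparison 10 TRIM genes were lower in osteogenic cells and 1 was higher at an adjusted p of at most 0.05. The median log2 fold change was −0.30 over the 46 members and −0.02 over all genes. Over all genes 3.19% were lower and 1.98% higher. The 10 were Trim30a, Trim30d, Trim14, Trim25, Trim34a, Trim12c, Trim21, Trim12a, Trim17 and Trim24, and the 1 was Trim59. Class IV held 8 of the 10, Trim14 lacks a RING finger, and Trim24 has a PHD finger and a bromodomain (class VI). In 16 members all osteogenic libraries were below all adipogenic ones, against 15.9% of all genes, and in 7 all were above, against 15%.

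Trim30a had the largest fold difference among members with an untreated mean of at least 10 CPM, with osteogenic values of 4.38, 3.61 and 3.90 CPM against an untreated adipogenic mean of 64.6 ± 26.4 CPM (SD, n = 3). Its log2 fold change was −4.02 ± 0.33 with an edgeR adjusted p of 0.00172. Trim30d had 1.93, 3.27 and 3.19 CPM in osteogenic libraries, a log2 fold change of −3.05 ± 0.33 with an edgeR adjusted p of 0.00408. Both genes were thus lower in every osteogenic library by a wide margin. Trim14 was close to the detection limit in osteogenic cells, with 2 counts over the 3 libraries against 142 in untreated adipogenic ones. That ratio of pooled counts was 66.0-fold with an exact 95% interval of 17.9 to 550, and the edgeR adjusted p was 0.0221. Trim30c had 0 counts in all osteogenic libraries, but it had 8 in the untreated adipogenic ones, and the difference had an edgeR adjusted p of 0.172.

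Trim25 had 34.5, 20.6 and 31.9 CPM in osteogenic libraries, a log2 fold change of −1.89 ± 0.26 with an edgeR adjusted p of 0.00991. Trim12c (10.6, 12.4 and 8.87 CPM, log2 fold change −1.75 ± 0.16, edgeR adjusted p = 0.00205) and Trim21 (7.07, 5.00 and 5.20 CPM, −1.60 ± 0.21, 0.00797) were also lower. For these 3 genes no osteogenic library reached an untreated adipogenic one. Trim34a (2.18, 2.93 and 1.16 CPM, log2 fold change −1.78 ± 0.32, edgeR adjusted p = 0.0208) and Trim12a (5.47, 7.83 and 4.52 CPM, −1.22 ± 0.25, 0.0343) followed. Trim17, a class IV gene, had 12.6, 13.0 and 12.7 CPM in untreated adipogenic and 6.59, 8.73 and 5.96 CPM in osteogenic libraries, with a log2 fold change of −0.85 ± 0.18 and an edgeR adjusted p of 0.0374. In GENCODE M21, 19.0% of its exonic length overlaps the histone gene Hist3h2a on the same strand. Trim24, a bromodomain cofactor of nuclear receptors, had 74.7, 91.8 and 82.2 CPM in untreated adipogenic and 55.1, 54.0 and 40.9 CPM in osteogenic libraries, with a log2 fold change of −0.73 ± 0.17 and an edgeR adjusted p of 0.0499.

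Trim59, which encodes a membrane-anchored TRIM protein, went the other way. It had 46.0, 55.8 and 49.1 CPM in untreated adipogenic and 89.7, 75.3 and 88.4 CPM in osteogenic libraries, with a log2 fold change of 0.75 ± 0.13 and an edgeR adjusted p of 0.0197. Of the 8 members that rose with IFNγ, 6 were lower in osteogenic cells, while Trim30c (above) and Trim56 missed the threshold. The osteogenic values of Trim56, 74.8, 75.8 and 75.5 CPM, gave a log2 fold change of −0.04 ± 0.12 with an edgeR adjusted p of 0.889. Trim8 (76.1, 83.1 and 96.2 CPM, 0.0815), Trim37 (44.3, 34.7 and 43.5 CPM, 0.0827), Trim5 (0.816, 0.339 and 0.706 CPM, 0.0569) and Trim6 (0.484, 0.339 and 0.0565 CPM, 0.0655) had osteogenic libraries below all untreated adipogenic ones, and their edgeR adjusted p-values, given in the brackets, missed the threshold.

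The call depended on single libraries in several genes. With IFNγ, the call on Trim25 was lost when any 1 of the 6 adipogenic libraries other than untreated 6 was left out (adjusted p up to 0.176), that on Trim30c for any other than untreated 4 (up to 0.132) and that on Trim34a for any other than treated 4 (up to 0.0896). The fits that leave out 1 library have no block. With the block on all 6 adipogenic libraries, the edgeR adjusted p was 0.01275 for Trim25, 0.0063 for Trim30c and 0.00381 for Trim34a. In the osteogenic comparison, the call on Trim24 was lost whichever of the 6 libraries was left out (up to 0.147), that on Trim17 for any but osteogenic 5 (up to 0.134), and that on Trim14 for each osteogenic library (up to 0.0869). Trim12a and Trim59 missed the threshold without adipogenic 4 or 6 or osteogenic 4 or 6 (up to 0.121 and 0.0831), and Trim34a without adipogenic 4 or 6 or osteogenic 4 (up to 0.0819). Trim21, Trim30a, Trim12a, Trim12c and Trim56 kept the call with IFNγ in all 6 of these fits, as did Trim30a, Trim30d, Trim25, Trim12c and Trim21 in the osteogenic comparison.

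IFNγ-treated adipogenic libraries were also compared with osteogenic ones. The 3 comparisons share libraries, so their results are not independent. Here 17 TRIM genes were higher in treated cells and 2 lower, with a median log2 fold change of 0.43 over the 46 members and 0.03 over all genes. Over all genes 9.2% were higher and 7.52% lower. In 20 members all treated libraries were above all osteogenic ones, against 19.7% of all genes, and in 5 all were below, against 18.8%. Of the 11 tested genes of the chromosome 7 list, Gm15134 included, 10 were higher and Trim68 was lower. Class IV as a whole held 12 of the 17. Trim30a differed by 6.13 ± 0.37 in log2 (edgeR adjusted p = 3.90e-05), Trim30d by 4.39 ± 0.35 (0.000196), Trim21 by 4.11 ± 0.23 (2.89e-05) and Trim34a by 3.62 ± 0.34 (0.000385). Trim12c differed by 3.07 ± 0.17 (2.89e-05), Trim12a by 2.97 ± 0.27 (0.000328), Trim5 by 3.01 ± 0.45 (0.00401) and Trim6 by 3.58 ± 0.77 (0.0179). Trim30c had 474 counts against 0. With 3 counts put in for the osteogenic group the ratio was 154-fold, which leaves out counting error in the treated group. Trim14, with 726 counts against 2, gave a ratio of 353-fold with an exact 95% interval of 97.5 to 2923.

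Of the members off that list, Trim25 differed by 3.14 ± 0.27 (edgeR adjusted p = 0.000320), Trim69 by 2.42 ± 0.47 (0.0117), Trim37 by 1.27 ± 0.26 (0.0148), Trim26 by 0.91 ± 0.15 (0.00612), Trim56 by 0.89 ± 0.12 (0.00247), Trim24 by 0.80 ± 0.17 (0.0176) and Trim2 by 0.60 ± 0.15 (0.0283). Trim37, a MATH-domain ligase, had 97.3, 72.2 and 61.5 CPM in untreated adipogenic, 134, 72.7 and 89.0 CPM in treated and 44.3, 34.7 and 43.5 CPM in osteogenic libraries. Trim59 (−0.58 ± 0.13, 0.0192) and Trim68 (−0.88 ± 0.18, 0.0147) were lower in treated than in osteogenic cells, and Trim68 had 13.6, 12.0 and 11.4 CPM in the latter. Leaving out 1 library ended the call for Trim2 (any but treated 4, adjusted p up to 0.0990), Trim24 (treated 6 or osteogenic 6, 0.0575), Trim37 (osteogenic 5, 0.0562), Trim6 (treated 6 or osteogenic 5, 0.0628), Trim69 (osteogenic 4 or 6, 0.0587), Trim59 (treated 4 or osteogenic 4 or 6, 0.0789) and Trim68 (osteogenic 4, 0.0639). The genes called in all 3 comparisons were Trim12a, Trim12c, Trim21, Trim25, Trim30a and Trim34a, each with treated adipogenic the highest and osteogenic the lowest.

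**Figure D5:**
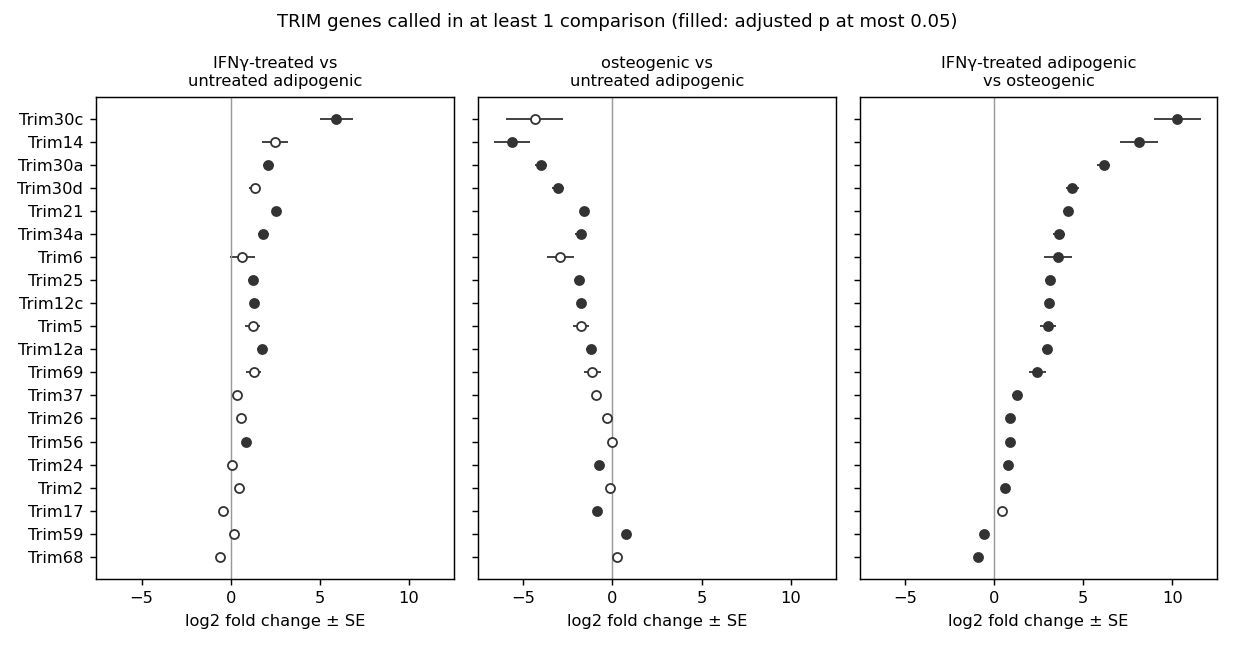
Log2 fold change with its SE in the 3 comparisons for the 20 TRIM genes past an adjusted p of 0.05 in at least 1, ordered by the third comparison. Filled circles passed in that comparison and open ones did not. Fitted values of Trim30c and Trim14 against groups with 0 to 8 counts depend on the prior count of the fit and are no bounds.

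In all 3 comparisons 26 of the 46 members missed the threshold, and 21 of these also missed it with the block in the IFNγ comparison. Of the nuclear class VI genes, Trim28 had 268, 219 and 262 CPM untreated, 331, 234 and 292 CPM treated and 294, 299.6 and 294 CPM osteogenic, with log2 fold changes of 0.19 ± 0.15 with IFNγ and 0.25 ± 0.15 in osteogenic cells (edgeR adjusted p = 0.653 and 0.373). Trim33, a regulator of SMAD signalling, had log2 fold changes of 0.11 ± 0.11 and 0.27 ± 0.11 (0.757 and 0.206). Trim24 had 0.07 ± 0.17 with IFNγ (0.918). The class IV gene Trim27 had 0.26 ± 0.20 and 0.14 ± 0.20 (0.641 and 0.728), and Trim32, mutated in a muscular dystrophy, −0.32 ± 0.26 and −0.26 ± 0.26 (0.657 and 0.581). A missed threshold does not show that these levels were alike in the 3 groups.

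In some members the libraries of 1 group differed widely, and 4 of these (Trim7, Trim46, Trim66 and Trim71), chosen after their values were seen, are given here. Trim7, which binds glycogenin, had 34.7, 184 and 34.9 CPM in untreated and 6.09, 117 and 18.4 CPM in treated adipogenic libraries, so that number 5 stood far above the rest in both groups. Its osteogenic values were 141, 92.5 and 110.1 CPM. Trim46, an axonal microtubule protein, was high in number 4, with 33.4, 12.1 and 3.09 CPM untreated and 34.8, 10.5 and 7.35 CPM treated. Trim66 was high in the same number, with 9.94, 2.48 and 0.998 CPM untreated and 12.7, 1.83 and 1.62 CPM treated. Trim71, the stem cell gene known as lin-41, stayed below the filter, with 48 counts in untreated library 4, 41 in treated library 4 and 0 in the other adipogenic libraries, against 0, 0 and 11 in the osteogenic ones. In 24 of the 46 members tested (52.2%) the same number was highest in untreated and treated libraries, and in 67.5% of all genes tested.

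Of the 12 members below the filter, Trim43a, Trim50, Trim58 and Trim61 had 0 counts in all libraries. Trim10, Trim15, Trim29, Trim55, Trim67 and Trim9 reached at most 19 counts in 1 library, and Trim30b and Trim71 are given above. At this depth a count of 0 does not show absence.

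The other genes of the pathways in which TRIM proteins act were counted from lists. Over all genes tested, 2.01% rose with IFNγ, and 8.61% did so with the block. Of all genes, 3.19% were lower in osteogenic than in untreated adipogenic cells, and 9.2% were higher in treated than in osteogenic cells. Of 8 interferon transcription factors, 6 rose with IFNγ and none fell, among them Irf1, Irf2 and Irf8. Irf1, which binds the repeat searched above, went from a mean of 53.6 ± 9.73 CPM to 790.5 ± 137 CPM (SD, n = 3; log2 fold change 3.88 ± 0.21, edgeR adjusted p = 9.29e-05). In osteogenic cells 3 of the 8 were lower than in untreated adipogenic ones, Irf9 by −2.07 ± 0.20 (0.00223), while Irf1 had −0.37 ± 0.19 (0.280).

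Of 16 RIG-I and MAVS pathway genes, 4 rose with IFNγ and none fell (8 rose with the block), and 6 were lower in osteogenic cells. Ddx58, which encodes the Trim25 substrate RIG-I, went from 108 ± 27.6 to 272 ± 34.3 CPM with IFNγ (SD, n = 3; log2 fold change 1.33 ± 0.21, edgeR adjusted p = 0.0153) and stood at 33.0 ± 4.81 CPM in osteogenic cells. Tmem173, which encodes the Trim56 partner STING, rose by 1.37 ± 0.21 (0.0137). Ifih1 and Irf7 were the others that rose. Mavs, the adaptor downstream of RIG-I, had −0.25 ± 0.11 (0.353). Of 21 E2 enzyme and ubiquitin genes 2 rose and none fell (4 rose with the block): Ube2l6, the ISG15-conjugating enzyme that works with Trim25, by 2.90 ± 0.36 (0.00463), and Uba7, the ISG15-activating enzyme, by 3.05 ± 0.39 (0.00562). In osteogenic cells 4 of the 21 were lower, Isg15 among them.

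Of 15 TAK1 and NF-κB genes none passed with IFNγ (2 rose with the block), and 2, Tab3 and Rela, were lower in osteogenic cells. Of 12 corepressor partners of Trim28, none passed with IFNγ or between osteogenic and untreated adipogenic cells, and 1 rose with the block. Of 6 tested TRIM family members that carry other names, none passed with IFNγ (1 rose and 1 fell with the block). Pml, the gene of the promyelocytic leukaemia nuclear body, had 150.0 ± 54.0 CPM untreated and 268 ± 97.7 CPM treated, with an edgeR adjusted p of 0.249 and of 0.00627 with the block. Between treated adipogenic and osteogenic cells, 7 of the 8 transcription factors, 8 of the 16 RIG-I pathway genes, 5 of the 21 E2 and ubiquitin genes, 2 of the 15 NF-κB genes and Pml were higher in treated cells, and of all these lists Chd3, a partner of Trim28, was the 1 gene lower. For the NF-κB genes that count is near the 9.2% of all genes that were higher there.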

How the data were processed

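The values analysed are whole-number read counts per Ensembl gene and library, as deposited by the authors and not normalized. Per the submitters' processing notes, CASAVA 1.8.0 and bedtools 2.11 were used and the build was mm9. Which aligner and counter were used, and whether counting used strand, is not given in the sources used here. Per the labels, poly(A) RNA went into a directional kit and was read as single 75-base reads. Exonic lengths used for RPKM are those in the deposited table.

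The members and gene lists were chosen with earlier results of these data known. In R 4.3.3, edgeR 4.0.16 kept genes with filterByExpr by group and scaled libraries by TMM. A robust quasi-likelihood fit of all 9 libraries with a term for group gave the 3 contrasts (two-sided F tests, Benjamini-Hochberg over all 15098 genes, threshold 0.05). The script was tested on simulated data. The SE is the log2 fold change over the square root of F. CPM use TMM-scaled totals. Floors are 3 counts per library. Like the intervals, they hold counting error alone, because reads without molecular identifiers are not separate molecules. An exact permutation test of 3 against 3 cannot go below 0.1.

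Members past the threshold in any comparison are named, as are Trim21, Trim24, Trim25, Trim27, Trim28, Trim32, Trim33 and Trim56, those past it in edgeR only with the block, and the highest member per length of each structural class. Alternatives were DESeq2 1.42.0, limma-voom (limma 3.58.1), other scalings and filters, only the libraries compared, replicate blocks, and each library left out.

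Numbers pair the adipogenic libraries, since deviations of same-numbered treated and untreated libraries correlated across genes at 0.778, 0.769 and 0.779. For osteogenic libraries the same-number values were −0.0546 to 0.0552. No 2 libraries of a group agreed within sampling noise. Transcripts for shared windows come from GENCODE M21 (GRCm38), whose build differs from that of the counts, so no gene coordinates are given. A planned comparison of protein sequences was replaced by the shared windows. The list entries Mb21d1, Npl4, Emr1 and 12 TRIM names without a row of their own were not analysed here.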

Additional observations from a re-analysis of the deposited data

How the results depend on the processing

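With IFNγ, 8 TRIM genes were called, and over all genes 341 of 15098. There were 5 to 6 when any 1 library was left out, the lowest without untreated 5, treated 5 or treated 6. Over all genes these fits called between 194 (without treated 6) and 278 (without treated 4). Only the 6 libraries compared gave 4, and 178 of 14705 genes. The replicate block on those 6 gave 18 (13 higher, 5 lower), against 1266 genes higher and 1180 lower of 14705. A block on the adipogenic libraries within the fit of all 9, chosen after seeing the data, gave 14 (12 higher, 2 lower), Trim30d among them. Of all 15098 genes, that block called 986 higher and 645 lower. For the 2 lower members, that is near the share of all genes. The block on the 6 kept all 8 calls and added the 10 genes named above. DESeq2 added 1 lower (Trim68). Trim25 missed the threshold with DESeq2 size factors, upper-quartile scaling, no filter and only 6 libraries. Trim30c missed it with the block over all 9 libraries and with only 6. Trim30a and Trim56 missed it only in the last of these, among the settings that keep all libraries of the comparison. Between osteogenic and untreated adipogenic cells the count of 11 became 6 (5 lower) with only the 6 libraries and 5 to 9 with 1 left out (5 to 8 lower, 0 to 1 higher). It was lowest without osteogenic 4, and it was 6 without adipogenic 4, adipogenic 6 or osteogenic 6. Over all genes 780 were called in the main fit and 523 with only the 6 libraries. With 1 left out, between 159 (without osteogenic 4) and 475 (without adipogenic 5) genes were called. With the replicate block on those libraries, whose numbers do not pair, the count of members was 0 (0 higher, 0 lower). That edgeR fit called few genes at all, 23 of 14564 (9 higher, 14 lower). In it 15 of the 42 members tested had an unadjusted p under 0.05, and the share of all genes at that p was not counted. DESeq2 called 16 members (2165 of 15461 genes). Between treated and osteogenic cells, where 2 members were lower, the replicate block on the libraries compared gave 0 lower. Leaving out 1 library gave 0 to 2 lower, with 0 without osteogenic 4. That block called 552 of 14562 genes lower, and the fit without osteogenic 4 called 584 of 15540. For the pathway genes the block gave 24 in place of 12 with IFNγ and 4 in place of 15 in osteogenic cells. Small fold changes that had passed no test changed sign when 1 library was left out. With IFNγ the log2 values ranged from −0.057 to 0.17 for Trim24. For osteogenic against untreated they ranged from −0.36 to 0.083 for Trim11, −0.23 to 0.0017 for Trim2, −0.23 to 0.081 for Trim3 and −0.087 to 0.0014 for Trim56. For treated against osteogenic they ranged from −0.014 to 0.29 for Trim27, −0.16 to 0.058 for Trim28, −0.36 to 0.10 for Trim32 and −0.14 to 1.40 for Trim63. Where these counts moved with fewer libraries, fewer samples entered the fit, and otherwise the cause was not tested. Depth limits the members with few counts, such as Trim30c, Trim14, Trim69 and Trim63.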
